A study of Mus musculus with 8 samples.

Results

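The loci described here are intervals bound by the coactivator p300 in control cells, with no p300 interval called at the same place after bexarotene, that lie far from genes. Of the 22051 p300 intervals of the control library, 4940 were members. They were chosen by 4 criteria, of which the first was read from the p300 lists themselves. No p300 interval of the bexarotene list overlapped the member by 1 bp, its center lay more than 50 kb from the nearest transcription start site (TSS) of a protein-coding gene, no myogenin interval of either condition overlapped it, and it lay outside the segment of chromosome 8 from 80 to 100 Mb. In the whole control list 67.3% of intervals (14849) had no overlapping bexarotene interval, a share that the choice of the members uses and that is not a result about them. The distance criterion left 5349 of these, the myogenin criterion 5017 and the chromosome 8 criterion the final 4940.

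The study followed C2C12 cells, an established mouse myoblast line of the C3H strain, as they differentiated into muscle with or without bexarotene, a ligand selective for the retinoid X receptor (RXR). The control group (Ctl) was C2C12 myoblasts differentiated for 24 h with no drug, and the treated group (Bex) was the same line with 50 nM bexarotene added when differentiation was induced. Chromatin immunoprecipitation with sequencing (ChIP-seq) gave 1 p300 and 1 myogenin library per condition, and the 4 peak lists of these libraries, of 8 samples in the series, were the data used. All cells came from a single line, and differentiating C2C12 cultures mix single myoblasts with cells that have started to fuse.

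p300 is a histone acetyltransferase that has no DNA sequence preference of its own and is brought to enhancers by transcription factors, so that the sequence under a p300 interval shows which factors could bind there. AP-1 factors, dimers of Fos and Jun proteins, read TGACTCA, Runx factors read TGTGGT, Tead factors, the partners of Yap and Taz, read GGAATG, and the myogenic factors MyoD and myogenin read E-boxes such as CAGCTG. Enhancers far from any promoter are where cell type and signal responses are often encoded, and AP-1, Runx and Tead motifs are frequent at such sites in proliferating mesenchymal cells.

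The lists hold positions only. An interval absent from the bexarotene list is one that did not pass the peak caller in that library, which is not a measured loss of signal. The bexarotene list held 9154 p300 intervals, and the lists do not give the depth of the p300 libraries, which also sets how many intervals are called. The treatment, the library and its depth cannot be told apart with 1 library each, and the conditions were not tested against each other. Of 9 muscle genes used to check the cell type, 6 had a control p300 interval and 8 a control myogenin interval within 50 kb of a TSS, among them Myod1 with 5 p300 and Myog with 4 myogenin intervals, and Ckm, the creatine kinase of mature muscle, had 0 in all 4 lists. Myog had 1 control p300 interval, and Acta1 and Mybph had 0 p300 intervals in both conditions. The paper reports p300 at a putative Mybph enhancer by qChIP, so the lists do not hold every site.

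The sequences under several members are printed first, since the motif content described next can be read from them. They were read from the plus strand of the mm9 reference, not from the reads, and the capitals mark the AP-1 core TGACTCA, or TGAGTCA where it lies on the minus strand. The first 3 are the whole 159 bp intervals with the most AP-1 cores of all members, named by their nearest TSS. The one near Dera held 7 cores outside protein-coding genes, the one near Gmpr 6 cores in an intron of Atxn1, and the one near Nell2 5 cores in an intron of that gene.
Dera, chr6:137792014-137792172: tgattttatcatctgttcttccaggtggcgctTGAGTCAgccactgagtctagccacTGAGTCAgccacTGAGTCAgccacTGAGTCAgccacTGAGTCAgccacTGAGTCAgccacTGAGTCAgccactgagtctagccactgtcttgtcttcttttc
Gmpr, chr13:45719207-45719365: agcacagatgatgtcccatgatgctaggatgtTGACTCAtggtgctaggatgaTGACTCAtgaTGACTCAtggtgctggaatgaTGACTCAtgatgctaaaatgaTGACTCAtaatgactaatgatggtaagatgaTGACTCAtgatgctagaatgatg
Nell2, chr15:95107186-95107344: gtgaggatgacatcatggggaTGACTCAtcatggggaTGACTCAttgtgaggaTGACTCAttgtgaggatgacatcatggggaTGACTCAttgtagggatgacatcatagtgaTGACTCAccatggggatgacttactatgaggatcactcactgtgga

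In these 3 members the core recurs within a short repeated unit, so they carry their cores as tandem repeats. The next 3 members held 3 cores each over the whole interval without such an array, and the central 200 bases are printed. The member near Dlg1 was 933 bp long, the one near Rai14 600 bp and the one near Pitpnb 513 bp, and the nearest bexarotene p300 interval lay 7.14 kb, 1.67 kb and 8.71 kb away.
Dlg1, chr16:31598953-31599152: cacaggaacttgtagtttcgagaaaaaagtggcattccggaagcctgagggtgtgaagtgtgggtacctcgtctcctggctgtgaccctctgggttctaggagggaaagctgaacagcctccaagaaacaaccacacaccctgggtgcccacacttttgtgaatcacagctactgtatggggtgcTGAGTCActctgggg
Rai14, chr15:10745954-10746153: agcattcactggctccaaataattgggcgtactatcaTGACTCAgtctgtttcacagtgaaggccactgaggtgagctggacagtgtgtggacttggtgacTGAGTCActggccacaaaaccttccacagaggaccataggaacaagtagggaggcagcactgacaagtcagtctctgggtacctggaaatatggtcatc
Pitpnb, chr5:111657386-111657585: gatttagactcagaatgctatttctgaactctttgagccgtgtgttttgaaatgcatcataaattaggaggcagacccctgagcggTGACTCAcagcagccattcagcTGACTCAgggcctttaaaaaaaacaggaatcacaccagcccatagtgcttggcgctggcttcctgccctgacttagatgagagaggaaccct

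The last pair shows long members whose center lacked the core. The longest of all members, 1087 bp, lay 309 kb upstream of Thbs1, which encodes thrombospondin-1. Its central 200 bases held none of the AP-1, Runx and Tead cores named above and no E-box of the form CAGCTG or CACCTG. Over its whole length it held 1 AP-1 core and 1 Runx core. The member 118 kb downstream of Foxa2, 958 bp long and 269 kb from the nearest bexarotene p300 interval, held a Runx core, TGTGGT, and no AP-1 core.
Thbs1, chr2:117628176-117628375: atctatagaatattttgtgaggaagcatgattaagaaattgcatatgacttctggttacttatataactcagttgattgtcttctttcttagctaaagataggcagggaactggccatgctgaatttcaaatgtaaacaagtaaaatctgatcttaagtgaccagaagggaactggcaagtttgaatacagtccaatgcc
Foxa2, chr2:147753616-147753815: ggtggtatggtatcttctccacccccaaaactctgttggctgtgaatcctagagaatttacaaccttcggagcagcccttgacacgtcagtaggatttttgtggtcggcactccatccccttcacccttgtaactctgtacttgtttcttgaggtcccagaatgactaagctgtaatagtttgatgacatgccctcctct

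The AP-1 core was the sequence by which the members differed most from the DNA around them. TGACTCA, read on both strands, was found in 1465 of the 4940 members when 100 bp to each side of the center were searched, a share of 29.7% (95% Wilson interval 28.4 to 30.9). In windows of the same length 2 kb to either side of the members, leaving out windows that held a p300 interval, it lay in 3.52% (338 of 9592), a ratio of 8.42. All Wilson intervals here cover counting error over intervals only, and members close to one another are not independent. Among all sequences of 7 bases present in at least 3% of members, TGACTCA had the highest ratio to the windows. The ranks behind it went to sequences that share bases with it, such as ATGAGTC with a ratio of 5.47 and GAGTCAC with 4.83, and to words that hold the Runx core, such as ACCACAA with 3.57 and AACCACA with 3.47.

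The Runx core was more frequent than the AP-1 core in number and less so in ratio. TGTGGT lay in 33.2% of members (31.9 to 34.5) against 14.0% of the windows, a ratio of 2.36. The Tead core GGAATG lay in 18.8% of members against 11.4%, a ratio of 1.65. Thus AP-1, Runx and Tead cores each lay in a larger share of members than of the DNA 2 kb away, with Wilson intervals that do not overlap.

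E-boxes split by their central bases. The E-box with a GC center, CAGCTG, the form preferred by MyoD and myogenin, lay in 19.8% of members and 7.88% of windows, a ratio of 2.51, although intervals on a myogenin interval had been left out. The form with a CC or GG center, CACCTG read on both strands, lay in 6.90% of members and 11.1% of windows, a ratio of 0.624. Both forms together, written CASCTG with S for C or G, lay in 24.9% of members against 18% of windows. The members were thus richer than the surrounding DNA in the GC form and poorer in the other form. Their median GC content within 100 bp was 44.5%, against 42.5% in the windows. A sequence of 12 bases repeated within 100 bp of the center lay in 6.90% of members and 14.5% of windows. The part of repeats in the E-box ratios was not tested. The split was not particular to the members. Distal p300 intervals called in both conditions had ratios of 3.11 for CAGCTG and 0.550 for CACCTG. Control-only intervals at 1 to 50 kb had 2.36 and 0.544.

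Among the other motifs searched, each on both strands, few set the members apart from the windows. TTGCNNAA, the core read by C/EBP factors, lay in 14.9% against 9.58%. The CTCF core, a longer consensus of the insulator protein, lay in 42 members, 0.850%, against 0.104% of windows, a ratio of 8.16 on few intervals. GGGCGG, read by Sp1, lay in 3.10% against 1.60%. AGGTCA, the single element of nuclear receptors such as RXR and its partners, lay in 10.5% of members and 11.3% of windows, a ratio of 0.932. A direct repeat of such elements 1 base apart (DR1, allowing A or G first and G or T in position 3 of each) lay in 4 members (0.0810%) and 11 windows (0.115%), and one 5 bases apart (DR5) in 3 members (0.0607%) and 6 windows (0.0626%). The nuclear receptor element was therefore not more frequent in the members than beside them.

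Several cores had ratios close to 1. CCAAT of NFY had a ratio of 0.938, TGTTTAC of Fox factors 0.952, AGATAA of Gata factors 1.096, GGAAGT of Ets factors 1.11, TGACAG of Meis and Tgif 1.12 and TTCNNNGAA of Stat factors 1.09. Neither muscle consensus stood out, the MEF2 site lying in 28 members (0.567%, ratio 1.16) and the CArG box of serum response factor in 55 (1.11%, ratio 1.04). The CRE TGACGTCA, which contains the Atf core TGACG, lay in 8 members, a ratio of 1.73 on few intervals, and TGACG itself in 6.54% (5.88 to 7.26) against 5.24% of windows (4.82 to 5.71), a ratio of 1.25. The palindromic NF1 site lay in 4 members and in 1 window. The glucocorticoid response element lay in 0 of 4940, which allows a share of up to 0.0777% by the Wilson interval.

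**Figure D1:**
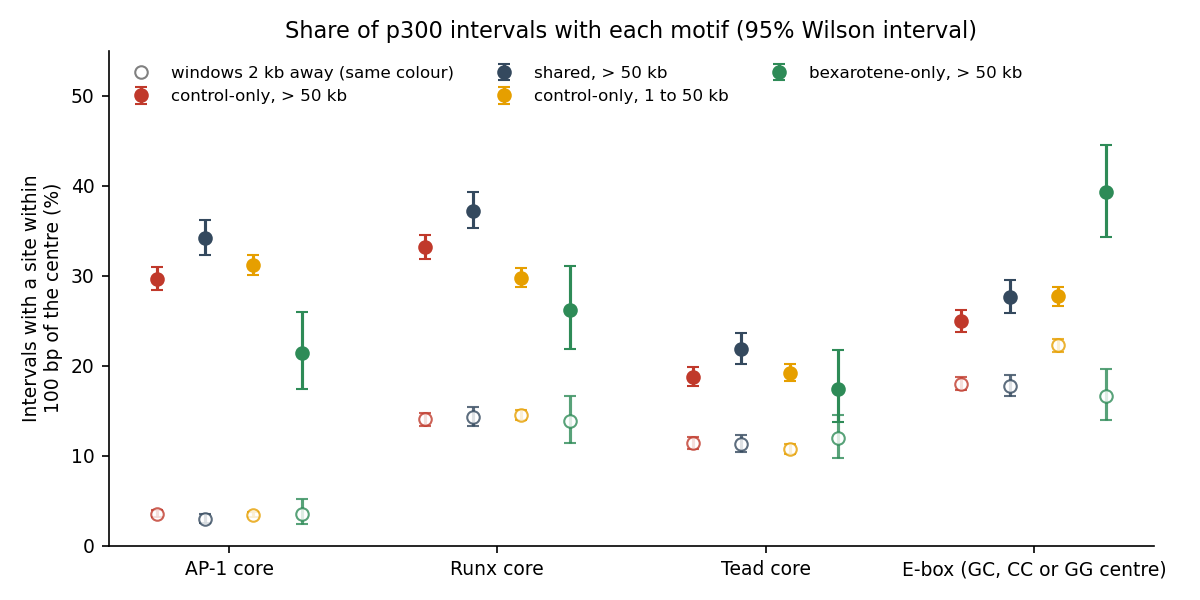
Share of p300 intervals with a motif core within 100 bp of the center (vertical axis, percent), for 4 cores and 4 classes of interval by color. Filled points are intervals, open points the windows 2 kb away and bars 95% Wilson intervals, which cover counting error only. The control-only intervals over 50 kb from a TSS stood at 29.7% for the AP-1 core against 3.52% in their windows, while the bexarotene-only intervals had the highest E-box share, 39.3%.

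The cores were concentrated at the middle of the members. AP-1 cores lay at 0.257 sites per 100 bp in the first 20 bp from the center and at 0.0202 sites per 100 bp from 380 to 400 bp. The AP-1 core nearest to the center lay at a median of 32.5 bp (quartiles 14.5 and 55.5) in the 1465 members that had one, against 37 bp for the Runx core, 40 bp for the Tead core and 39 bp for the E-box CASCTG. Since these medians are taken over a window of 100 bp, single sites spread evenly would have a median at its middle.

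**Figure D2:**
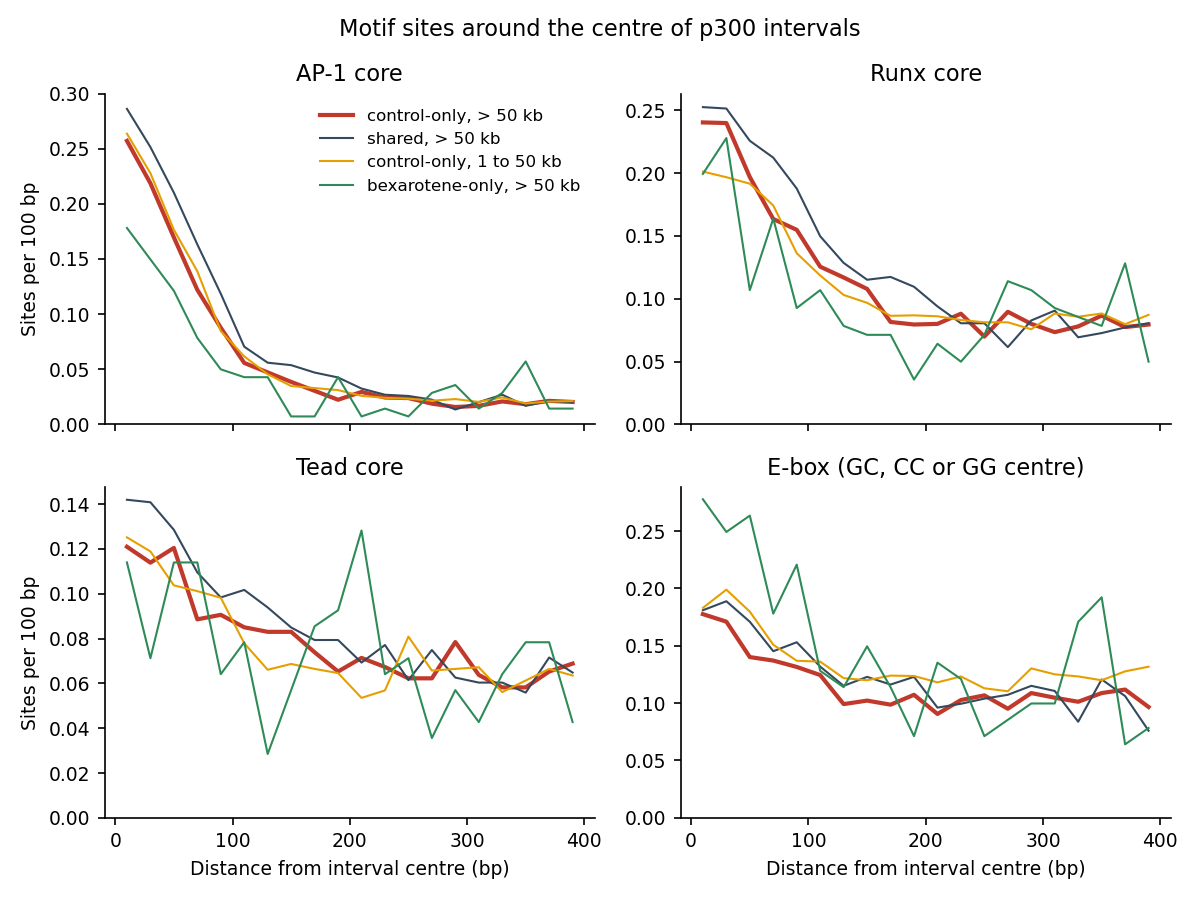
Motif sites per 100 bp of sequence (vertical axis) against the distance from the interval center in bins of 20 bp (horizontal axis), for 4 motif cores, with 1 line per class of p300 interval. In the control-only distal intervals (thick red) the AP-1 core fell from 0.257 sites per 100 bp at the center to 0.0202 at the edge of the plot. The bexarotene-only line rests on 351 intervals.

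Most members with an AP-1 core had a single one. Within 100 bp of the center, 1284 members had 1 core, 170 had 2 and 11 had 3 or more. The bases around the cores differed from those around the cores of the windows. A purine before TGACTCA and a pyrimidine after it were present together at 41.3% of the 1660 cores in members (38.9 to 43.7) and at 23.0% of the 343 cores in the windows (18.9 to 27.8). Cores with neither base made up 11.4% in members and 24.5% in windows. Both bases together were present at 44.8% of the cores in distal p300 intervals called in both conditions. In control-only intervals at 1 to 50 kb they were present at 38.7%. Of sequences 1 base away from the core, TGAATCA, which is the reverse complement of TGATTCA, had the highest ratio to the windows, 3.68, followed by TGACTAA with 3.49.

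The Runx, Tead and CASCTG cores were each less frequent in members with an AP-1 core than in those without. Pairs of cores without AP-1 were not compared. In the central 200 bp, 26.2% of members held none of the AP-1, Runx, Tead and CASCTG cores, 1 kind lay in 45.7%, 2 kinds in 23.9%, 3 kinds in 4.05% and all 4 in 11 members. The Runx core lay in 27.3% of members with an AP-1 core and in 35.6% of those without, a difference of -8.32 points (95% Newcombe interval -11.1 to -5.50). The Tead core lay in 16.7% with and 19.7% without (-3.03 points, -5.30 to -0.654), and CASCTG in 21.0% with and 26.6% without (-5.63 points, -8.14 to -3.04). In distal p300 intervals called in both conditions the Runx core lay in 30.6% with and 40.7% without an AP-1 core. In control-only intervals at 1 to 50 kb it lay in 28.1% and 30.5%. The Tead and CASCTG cores were also less frequent with an AP-1 core in both of these classes.

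Compared with the 2237 distal p300 intervals called in both conditions (shared distal), which met the other criteria in the same way, the members carried each of the 4 cores less often. The AP-1 share was 29.7% against 34.2%, a difference of -4.54 percentage points (95% Newcombe interval -6.90 to -2.21). Its size depended on the settings, from -2.47 points with a motif window of 50 bp, -2.67 with only intervals longer than the smallest and -2.70 with myogenin intervals kept to -8.11 where sharing needed 50% reciprocal overlap and -12.2 over the whole interval, each lower in members. For the Runx core the difference was -4.08 points (-6.48 to -1.70), for the Tead core -3.12 (-5.18 to -1.12) and for CASCTG -2.75 (-4.98 to -0.563). CAGCTG, the GC form within CASCTG, differed by -3.40 points (-5.50 to -1.36), and CACCTG by 0.734 points (-0.534 to 1.92). Of the other motifs searched, the C/EBP core was also less frequent in members (-1.91 points, -3.79 to -0.104). The CTCF core was more frequent (0.493 points, 0.0818 to 0.838), and the remaining Newcombe intervals included 0. Members had the CTCF core less often than the control-only intervals at 1 to 50 kb, compared below (-0.434 points, -0.805 to -0.0515). Against the distal intervals called only after bexarotene the difference was -2.00 points (-4.32 to -0.671).

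The members were also shorter than the shared distal intervals. A longer interval overlaps another by 1 bp more readily, so the choice of members itself favors short intervals. How much of the difference in length follows from that choice was not tested. The lists give no signal, so how length relates to the strength of binding was not tested. The median length was 205 bp in members (quartiles 159 and 278) and 355 bp in shared distal intervals (262 and 476). Of the members 40.8% (39.4 to 42.1) had the smallest length of the control list, 159 bp, against 7.33% (6.32 to 8.49) of shared distal intervals. Not every member was short, since 653 members, 13.2%, were longer than the shared distal median. Of these 653, 421 (64.5%) had no bexarotene p300 interval within 10 kb. Over all members, 29.3% had such an interval within 10 kb and the rest had none.

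**Figure D3:**
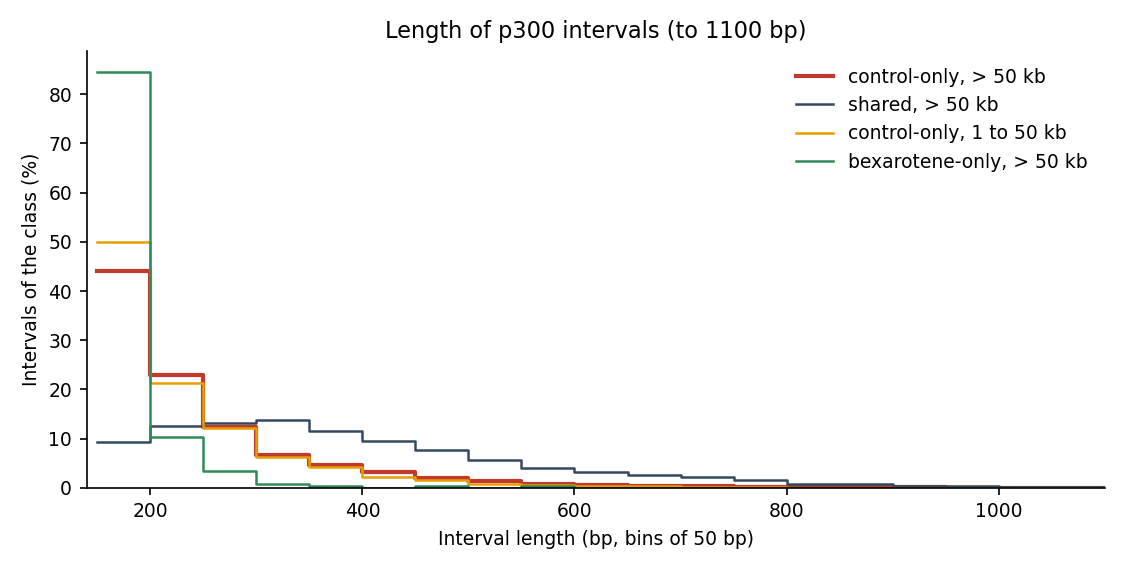
Distribution of interval length in bins of 50 bp (horizontal axis) as the percentage of each class (vertical axis), for 4 classes of p300 interval. The control-only distal intervals, median 205 bp, pile up in the first bin, while the shared distal intervals, median 355 bp, spread over longer lengths. Intervals above 1100 bp are not drawn.

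The lower AP-1 share of members was present in each length band. At the smallest length 26.9% of members and 33.5% of shared distal intervals had the core within 100 bp of the center, a difference of -6.67 points (-14.4 to 0.384). From there to 250 bp the difference was -7.15 points (-13.0 to -1.45), from 250 to 400 bp -5.21 (-9.49 to -0.944) and above 400 bp -4.49 (-9.20 to 0.473). The Newcombe intervals of the first and the last band include 0. Counted over the whole interval, the core lay in 24.6% of the shortest members, in 32.7% up to 250 bp, in 38.5% from 250 to 400 bp and in 38.9% above 400 bp, and the differences from shared distal intervals ran from -5.21 to -8.14 points with intervals that exclude 0 in all 4 bands. The share of members with a core thus rose with interval length to 400 bp when the whole interval was read, where longer intervals offer more bases to search. Within 100 bp of the center, a fixed length, it was 31.8% from the smallest length to 250 bp and 34.9% from 250 to 400 bp. Above 400 bp the center held fewer, 22.4%.

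**Figure D4:**
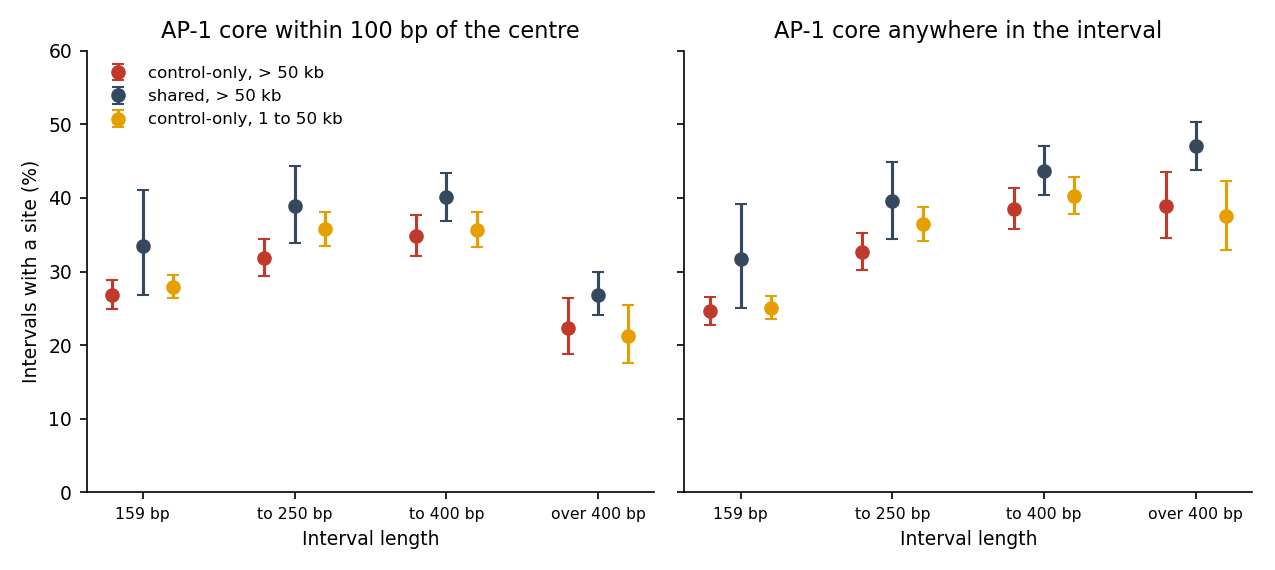
Share of intervals with the AP-1 core (vertical axis, percent) in 4 bands of interval length (horizontal axis), counted within 100 bp of the center (left) and over the whole interval (right). Points are shares and bars 95% Wilson intervals. In each band the control-only distal intervals (red) lie below the shared distal intervals (dark), by -4.49 to -7.15 points on the left, and orange marks the control-only intervals at 1 to 50 kb.

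Against the 6772 control-only intervals at 1 to 50 kb from a TSS, chosen on the same absence from the bexarotene list, the members differed in other ways. The AP-1 share differed by -1.56 points (-3.24 to 0.129), an interval that includes 0. It excluded 0 under 4 of the alternative settings, and in the band from the smallest length to 250 bp, where the difference was -3.94 points (-7.31 to -0.538). The Runx core was more frequent in members by 3.39 points (1.69 to 5.10) and CASCTG less frequent, with a difference of -2.80 points (-4.40 to -1.18), and for the Tead core the difference was -0.397 points (-1.83 to 1.05). GGGCGG lay in 3.10% of members and 6.04% of the nearer intervals. The windows beside the nearer intervals also held more E-boxes and Sp1 cores, 22.3% for CASCTG against 18% beside the members and 3.16% for GGGCGG against 1.60%. Relative to their own windows, members had CASCTG at a ratio of 1.38 and the nearer intervals at 1.24, and GGGCGG at 1.94 and 1.91, so the lower E-box share of members did not hold relative to the surrounding DNA. For the Runx core the ratios were 2.36 and 2.05, in the same direction as the shares. Both E-box forms were less frequent in members, CAGCTG with a difference of -1.95 points (-3.43 to -0.463) and CACCTG with -1.03 (-1.98 to -0.0608). AGATAA was more frequent in members (2.03 points, 0.815 to 3.27). TGACG (-1.58 points, -2.52 to -0.626), TGACGTCA (-0.207, -0.400 to -0.00999) and the CTCF core were less frequent. For the remaining motifs the Newcombe intervals included 0.

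The 351 distal intervals called only after bexarotene, a short list in which 81.8% had the smallest length of the bexarotene list, 158 bp, had another makeup. The AP-1 core lay in 21.4% of them, so that members exceeded them by 8.29 points (3.53 to 12.5), and members exceeded them by 6.95 points (1.94 to 11.5) for the Runx core. CASCTG lay in 39.3% of them and was less frequent in members, with a difference of -14.4 points (-19.7 to -9.28). Both E-box forms shared in this, CAGCTG with 28.8% against 19.8% in members and CACCTG with 13.1% against 6.90%. At the smallest length of each list, with 2014 members and 287 bexarotene-only intervals, the AP-1 difference was 4.91 points (-0.568 to 9.74) and the Runx difference 4.55 (-1.19 to 9.75), both with intervals that include 0. The CASCTG difference there was -11.5 points (-17.5 to -5.70).

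The AP-1 share of members changed little with distance from genes. It was 30.2% at 50 to 100 kb (28.3 to 32.2), 29.4% at 100 to 200 kb, 28.3% at 200 to 500 kb and 32.9% (73 of 222) in the members beyond 500 kb. The Wilson intervals of the 4 bands overlap, and median lengths in the 4 bands lay between 202 and 207 bp. The median distance was 114 kb (quartiles 73.8 and 205 kb) and the farthest member lay 1801 kb from a TSS. Just inside the 50 kb limit, members lay 50021 bp from Tm4sf4, 50037 bp from Zswim6 and 50090 bp from Rab11fip4, and just outside it control-only intervals lay at 49989, 49984 and 49983 bp from D4Bwg0951e, Ppp1cb and Tmem63b.

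By the annotation, 32.1% of members (30.8 to 33.4) lay inside a protein-coding gene, nearly all in introns (1559 members) and 27 in an exon. A further 3.32% lay only in a lincRNA, antisense or processed transcript gene, and 64.5% lay in no annotated gene. Members more than 50 kb from every annotated transcript start, coding or not, numbered 3257 (65.9%), and 72 members lay within 1 kb of some non-coding or other start. Shared distal intervals lay inside protein-coding genes at a similar share, 30.6%.

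Many members lay close to one another. Of the members 34.7% (33.3 to 36.0) had another member within 10 kb, against 21.8% of shared distal intervals, a smaller class of 2237, and 35.4% of the nearer control-only intervals. The 4940 members formed 3971 runs in which neighbors lay within 10 kb, of which 3228 were single members, 579 pairs, 118 runs of 3, 34 of 4, 8 of 5 and 4 of 6 or more. A run upstream of Spred2, an inhibitor of Ras and MAP kinase signaling, held 6 members over 18.9 kb at chr11:19730745-19749681, of which 3 had an AP-1 core, with no bexarotene p300 interval and no myogenin interval within the span. Runs of 6 also lay downstream of Ephb3 (22.8 kb, 0 with an AP-1 core), downstream of 1700001O22Rik (15.7 kb, 0 with an AP-1 core) and upstream of Ifne (25.2 kb, 0 with an AP-1 core). In the run labeled by Ephb3, part of the members had Vps8 as their nearest gene. The span near Ephb3 held no bexarotene p300 and no myogenin interval, the span near 1700001O22Rik 1 bexarotene p300, 1 control myogenin and 2 bexarotene myogenin intervals, and the span near Ifne 2 bexarotene myogenin intervals. Of the 8 runs of 5 members, the run described here spanned 10.3 kb in an intron of Dnm3. Its span held 2 shared control p300, 2 bexarotene p300 and 1 bexarotene myogenin interval.

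The nearest bexarotene p300 interval lay at a median of 30.7 kb from a member. It was within 1 kb of 6.84% of members, within 10 kb of 29.3% and within 50 kb of 61.0%. The closest lay 1, 4 and 14 bp from members near Bcl6, Nfib and Adamts5, while the smallest overlap that made a distal interval shared was 8 bp, near Myc. Members within 10 kb of a shared p300 interval (26.8% of members) had an AP-1 core in 27.1% (24.8 to 29.6), and members without one in 30.6% (29.1 to 32.1). A myogenin interval of the control list lay within 10 kb of 9.74% of members and one of the bexarotene list within 10 kb of 11.6%. These gaps are bounded by the choice of members, which leaves out overlapping p300 and myogenin intervals, and the nearer control-only intervals had a bexarotene p300 interval within 10 kb at a like share, 28.9%.

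Members were spread unevenly over chromosomes. Over the 1325.7 Mb of sequence more than 50 kb from a protein-coding TSS there were 3.73 members per Mb. Chromosome 13 held 6.67 per Mb, chromosome 15 5.75 and chromosome 9 5.03, while the X chromosome held 0.824. On each of these chromosomes shared distal intervals were counted too, 217, 144, 118 and 26 beside 423, 329, 274 and 79 members. The number of copies of each chromosome in this cell line was not measured, and its part in these densities was not tested.

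The members had 1948 protein-coding genes as their nearest, 26.6% of the 7327 genes that are nearest to any sequence more than 50 kb away. Of these genes 904 had 1 member, 768 had 2 to 4 and 276 had 5 or more, and the last group held 40.9% of all members. The nearest gene is a label of place here, and no target was measured.

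Myc, the growth-promoting transcription factor, had the most, 20 members at 56.7 to 903 kb, with 3 upstream and the others downstream. All 20 lay outside protein-coding genes, at lengths from 159 to 748 bp, and 6 had an AP-1 core, 9 a Runx core, 7 a Tead core and 6 a CASCTG E-box. The longest, 748 bp at chr15:62530078-62530825, held 1 of each of the 4 cores and lay 22.3 kb from the nearest bexarotene p300 interval. In the same sequence 9 distal intervals were shared and 3 were called only after bexarotene. The members were 20 of the 29 distal control intervals near Myc (69%), beside 68.8% over all genes, a share that uses the contrast behind the choice of members.

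Zeb2, a zinc finger repressor of epithelial genes, had 18 members, all upstream at 129 to 1464 kb, with 4 shared and 1 bexarotene-only distal intervals. Asap1, a regulator of Arf GTPases, and Mettl15, a methyltransferase of mitochondrial ribosomal RNA, had 16 each, and so had Zfp608, a zinc finger protein. Bmper, a secreted regulator of bone morphogenetic proteins, and Klf6, a zinc finger factor, had 15 each with 9 shared intervals beside them. Cited2, a transcriptional coregulator that itself binds p300, had 15 members, all upstream at 160 to 1225 kb, beside 10 shared and 4 bexarotene-only intervals. Every gene of this leading group had shared distal p300 intervals as well.

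**Figure D5:**
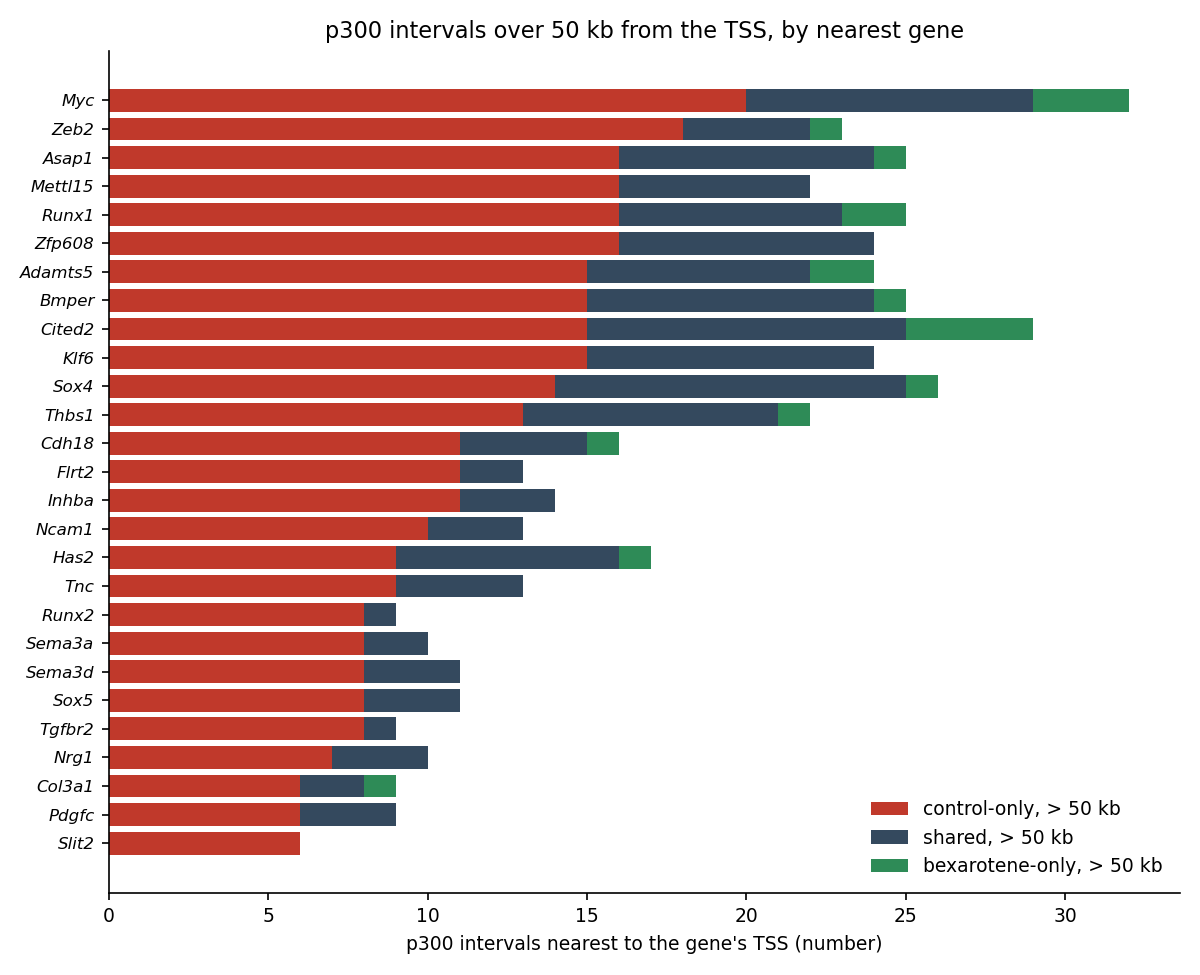
Number of distal p300 intervals by nearest TSS (horizontal axis) for the named genes with 6 or more control-only distal intervals, in bars split into control-only (red), shared (dark) and bexarotene-only (green). Myc has 20 control-only, 9 shared and 3 bexarotene-only intervals, and Slit2 is the gene drawn with control-only intervals alone, 6 of them.

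The gene lists below were chosen with earlier results of these data known, so their densities are given as a description only. Among genes of Runx, Tead and their cofactors, 5 of the 6 genes with distal sequence were nearest to 28 members, 23.4 per Mb beside 3.73 over all genes. Most of these 28 members were nearest to Runx1 or Runx2. Runx1 had 16 members, 6 in its own introns and 10 upstream between 79.8 and 367 kb, of which 5 had an AP-1 core and 3 a Runx core. Runx2, the regulator of bone formation, had 8 members and 1 shared interval, and 5 of its members had an AP-1 core and 0 a Runx core, counts singled out after the values were seen. Runx3 had 2, and Tead1 and Wwtr1, which encodes Taz, had 1 each. Shared distal intervals were also dense in this list, 10.0 per Mb beside 1.69 over all genes, and 70.0% of its distal control intervals were members, beside 68.8% over all genes.

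Of 14 genes encoding AP-1 factors and their relatives, 5 had distal sequence and 3 of them were nearest to 7 members. This was a density of 18.4 per Mb, resting on 7 intervals over 0.380 Mb. Jun had 2 members and 4 shared intervals, Bach1 2 members and Bach2 3 members with no shared interval. Of 16 myogenic regulators with distal sequence 4 were nearest to 8 members (2.73 per Mb), Eya4 to 3, Eya1 and Mef2a to 2 each and Pax7, the factor of satellite cells, to 1. That is 25% of the genes in this list, beside 26.6% of all genes with distal sequence.

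Genes of the extracellular matrix were nearest to 71 members (15 of 20 genes, 16.8 per Mb), with 10.2 shared intervals per Mb. Thbs1 had 13 members, all upstream at 112 to 368 kb, of which 5 had an AP-1 core, 5 a Runx core and 0 an E-box CASCTG, and 8 shared intervals. Adamts5, a metalloproteinase that cleaves aggrecan, had 15 with an AP-1 core in 4, Tnc, which encodes tenascin-C, 9 with an AP-1 core in 5, and Col3a1, which encodes a fibrillar collagen, 6 with a core in 4. Has2, the hyaluronan synthase, had 9 members with 0 AP-1 cores, and 7 shared intervals. Col12a1 had 5 members with a core in 1, and Postn, which encodes periostin, 3 with 0. The counts of single genes are too small to compare with the share over all members.

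Growth factor and receptor genes were nearest to 62 members (15 of 25 genes, 11.7 per Mb). Inhba, which encodes the activin A subunit, had 11, all downstream at 142 to 755 kb, of which 8 had an AP-1 core and 7 a Runx core, singled out here after the values were seen. They included the pair at chr13:16853285-16853524 and chr13:16861172-16861612, each with 1 core. Tgfbr2, the type II receptor of TGF-beta, had 8 members, all upstream, the longest 886 bp with an AP-1 core, and 1 shared interval. Nrg1 had 7, Pdgfc 6, Kitl 5, and Hgf, the ligand of Met, and Fgf10 4 each. Tgfb2, with 5 members and 6 shared intervals, was among the genes of this list with more shared intervals than members, as were Bmp4 and Igf1.

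Mesenchymal regulators and bHLH factors were nearest to 56 members (11 of 18 genes, 8.51 per Mb), among them Sox4 with 14 members and 11 shared intervals, Sox5 with 8 and Sox9 with 4. Adhesion and guidance genes have long stretches of distal sequence, 31.7 Mb, and had 89 members (19 of 30 genes) at 2.81 per Mb, beside 0.915 shared intervals per Mb. In this list Cdh18 and Flrt2 had 11 members each, Ncam1 10 and the secreted semaphorins Sema3a and Sema3d 8 each. Slit2, a ligand of Robo receptors, had 6 members and no shared interval, and its nearest bexarotene p300 interval lay 288 kb or more from each of them. Nrp1 and Sema3e had 4 members and 0 shared intervals, whereas Lphn2 had 5 members beside 8 shared.

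The control-only share of distal intervals, which is the contrast that chose the members and is given as a description, lay between 57.1% and 75.4% in the 7 lists, and its Wilson interval included the 68.8% of all genes in each list. The 5 lists with more members per Mb than all genes together, those of Runx and Tead, AP-1, matrix, growth factor and mesenchymal genes, also had more shared distal intervals per Mb than all genes, from 4.41 to 10.5 beside 1.69. The highest value, 10.5, was that of the AP-1 list, whose 4 shared intervals were all nearest to Jun. The adhesion list lay below all genes in both counts, and the myogenic list below in members and above in shared intervals, 2.05 per Mb. Of the genes with distal sequence, 25% in the myogenic list were nearest to a member, beside 26.6% over all genes. In the other lists this share ran from 60% (AP-1 and growth factor genes) to 83.3% (Runx and Tead genes). The lists were chosen with earlier results of these data known.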

How the data were processed

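Per the labels and the study's methods, p300 was immunoprecipitated from C2C12 cells after 24 h of differentiation and sequenced as single-end reads. According to the study's methods, the authors mapped p300 reads with Bowtie and myogenin reads with BWA-MEM to mm9, discarded duplicates (Picard) and called peaks with HOMER. Each condition has its own list, and whether input was used in the call is not given in the sources used here. The peak lists used here hold interval positions, counted from 0, without signal or score. According to the study's reporting summary, raw data were deposited as well, and reads were not used here. The threshold of the peak caller could therefore not be varied from the lists. The sequencing depth behind each list is not given in the sources used here, which state only an average over all datasets. The conditions, with a single library each, could not be tested. The other 4 samples of the series had no list and were not used here.

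Intervals, distances and sequences were processed in Python 3.11.15 with numpy 2.4.6 and pysam 0.24.0, and functions were tested on simulated data. Distances ran from the interval center to 46006 start sites of protein-coding transcripts (GENCODE vM1). Motifs on either strand were counted in the 100 bp to each side of the center, and overlapping motifs were counted for each. Control windows of equal length lay 2 kb to either side and held no p300 interval. Positions are printed counted from 1. Named genes were the 10 with most members and genes of the lists, some of which had fewer than 3 members. Named regions were the longest, those with most AP-1 cores and the largest runs. The members, lists and motifs were chosen with earlier results of these data known. The DR1 and DR5 searches, the count of all 7-base sequences and the comparisons by length were added after the values were seen.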

Additional observations from a re-analysis of the deposited data

How the results depend on the processing

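Across 11 results and 12 alternative settings, 91 of 120 recomputed values stayed within the counting interval of the reported value (for the number of members, within 1.5 times it), 29 lay outside and 0 differences changed sign. The number of members fell to 2828 at 100 kb from a TSS, to 3257 with all annotated transcript starts and to 2926 with only intervals longer than the smallest. With only those longer intervals the AP-1 share was 31.6%, the Runx share 34.6%, the median length 258.5 bp and the share with another member within 10 kb 24.0%. A motif window of 50 bp gave 19.7%, 20.4%, 11% and 14.4% for the AP-1, Runx, Tead and CASCTG cores, and the whole interval gave 31.3%, 35.9%, 21.8% and 28.0%, as fewer or more bases were searched. Over the whole interval the AP-1 share of members minus that of shared distal intervals was -12.2 points, where the shared intervals are also longer. This difference, -4.54 points as reported, was smaller with a 50 bp window (-2.47, -4.55 to -0.453), with longer intervals only (-2.67, -5.32 to -0.0321) and with myogenin intervals kept (-2.70, -4.80 to -0.622).

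Calling an interval shared only at 50% reciprocal overlap gave a difference of -8.11 points, a median length of 216 bp, 35.8% at the smallest length and 39.5% with a neighbor. Keeping intervals on a myogenin interval raised CASCTG to 27.6% and the share with a neighbor to 36.0%. The longest member of each run gave a median length of 211 bp and 36.0% at the smallest length. The share inside a protein-coding gene was 36.6% at 25 kb, 23.8% at 100 kb and 28.3% with all transcript starts, which also gave 33.1% with a neighbor. Leaving out members with a sequence of 12 bases repeated within 100 bp of the center, an alternative chosen after seeing the data, gave 32.6% with a neighbor. Against the nearer control-only intervals the AP-1 difference stayed between -0.305 and -2.53 points, and its Newcombe interval excluded 0 for all transcript starts, longer intervals, 1 member per run and no tandem repeats.

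The genome file marks no repeats, so the planned filter on masked bases was not run. The smallest length under longer intervals only, and the neighbor share under 1 member per run, are fixed by those settings and were left out. No paired analysis was possible because each condition has 1 library. Without tag counts, a member just under the peak threshold after bexarotene and one with no signal there look alike in these lists.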
